A study of Mus musculus with 14 samples.

Results

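The genes described are 36 targets of the nuclear receptor PPAR-alpha and enzymes of fatty acid oxidation, with the receptor itself, and they were followed in liver from high-fat-fed mice given mesenchymal stem cells (MSCs) or saline. A gene was taken as measured when the array held a probe set annotated to its symbol alone, and of several such probe sets the one with the highest mean over all 14 arrays was used. In this way 35 of the 36 genes were measured, out of 19938 genes with a probe set of their own, and Acsl1 was not analysed here. Only Hadhb had more than 1 such probe set.

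Liver RNA came from male C57BL/6 mice, 24 weeks old, after 20 weeks on a high-fat diet, and each mouse was hybridized to its own Affymetrix mouse gene array. The HFM group was 7 mice injected with MSCs and the HFS group was 7 mice injected with the vehicle, which the labels call saline and the methods in part call PBS. Tissue was taken 24 h after injection. The cells were human bone marrow MSCs from a single donor, given through the tail vein, so the HFM group stands for 1 donor line in a mouse host, and no mice on a control diet were analysed here. All differences below are HFM minus HFS in log2 expression, in which 1 unit is a doubling. Median levels of the arrays lay between 4.24 and 4.35 log2 units, and pairs of arrays correlated at 0.970 to 0.991 across probe sets, with the same median of 0.986 within and between the groups. The liver label was checked on 11 hepatocyte genes, whose mean levels lay between 8.81 and 13.47 log2 units, above the median of 4.65 over all tested probe sets.

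PPAR-alpha is a nuclear receptor of hepatocytes that binds fatty acids and their derivatives, pairs with the retinoid X receptor and switches on genes of fatty acid breakdown, most of all in fasting and under fibrate drugs. Mitochondria import long-chain fatty acids as carnitine esters and shorten them by beta-oxidation, and peroxisomes shorten very long and branched chains and dicarboxylic acids. Acyl-CoA thioesterases cleave fatty acyl-CoA back to free fatty acid and coenzyme A in cytosol, mitochondria and peroxisomes.

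The receptor pair binds a repeat of the hexamer AGGTCA with 1 base between the copies, so the 250 bases before the start of each gene were searched on both strands for AGGTCA, any 1 base and AGGTCA again, a window of 13 bases, allowing up to 2 mismatches in its 12 fixed letters. Of 32841 mouse promoters in RefSeq (GRCm38.p6), 1063 (3.24%) held such a window, and 159 (0.484%) held one with at most 1 mismatch. By gene, 1005 of 27018 (3.72%) held a window before at least 1 start. Among the 31 members with a promoter in that table, 4 (12.9%) held such a window, namely Fabp1 with 1 mismatch and Acot4, Creb3l3 and Etfa with 2, and 3 members had several starts, of which the closest window was taken. Vnn1, Hsd17b4, Crat, Acaa2 and Decr1 had no entry. The promoters are printed for the 3 members with the lowest p values in the comparison below (Acot1, Hacl1 and Acads) and for 2 members with a window, Fabp1 and Acot4, each as 250 bases of the gene's own strand ending at its start. Capitals mark the 13 bases closest to the repeat on either strand. Where several windows were equally close, as in Hacl1, the first was marked, with the gene's own strand preferred. A window is a match of letters and not a site shown to be bound.
Acot1, chr12:84009252-84009501, plus strand: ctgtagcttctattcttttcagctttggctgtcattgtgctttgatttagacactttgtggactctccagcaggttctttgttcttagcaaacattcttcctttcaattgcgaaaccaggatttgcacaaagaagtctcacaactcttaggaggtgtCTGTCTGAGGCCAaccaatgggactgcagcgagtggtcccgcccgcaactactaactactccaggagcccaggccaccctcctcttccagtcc
Acot4, chr12:84038129-84038378, plus strand: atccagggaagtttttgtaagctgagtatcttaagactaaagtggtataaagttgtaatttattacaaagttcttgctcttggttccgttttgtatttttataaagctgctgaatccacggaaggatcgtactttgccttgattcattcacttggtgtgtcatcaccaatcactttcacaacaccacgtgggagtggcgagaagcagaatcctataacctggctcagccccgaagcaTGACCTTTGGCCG
Fabp1, chr6:71199629-71199878, plus strand: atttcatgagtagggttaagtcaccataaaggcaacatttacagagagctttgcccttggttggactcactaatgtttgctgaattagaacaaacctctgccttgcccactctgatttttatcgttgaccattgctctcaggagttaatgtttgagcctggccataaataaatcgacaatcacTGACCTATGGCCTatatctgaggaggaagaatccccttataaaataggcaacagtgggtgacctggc
Hacl1, chr14:31640966-31641215, minus strand: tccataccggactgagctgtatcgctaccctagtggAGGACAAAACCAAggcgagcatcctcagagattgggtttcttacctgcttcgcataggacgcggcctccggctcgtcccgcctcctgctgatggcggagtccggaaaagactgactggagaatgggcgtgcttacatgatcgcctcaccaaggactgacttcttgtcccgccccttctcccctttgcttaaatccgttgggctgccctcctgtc
Acads, chr5:115119347-115119596, minus strand: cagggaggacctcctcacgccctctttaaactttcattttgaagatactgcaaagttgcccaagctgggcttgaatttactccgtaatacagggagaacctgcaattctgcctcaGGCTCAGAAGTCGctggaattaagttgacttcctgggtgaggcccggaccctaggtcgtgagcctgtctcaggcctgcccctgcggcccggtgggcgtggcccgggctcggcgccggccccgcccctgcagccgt
In Fabp1 the capitals read on the opposite strand differ from the repeat at 1 fixed letter and end 54 bases before the start, and in Acot4 they differ at 2 fixed letters and reach the start itself. The closest windows of Acot1 and Acads missed 4 fixed letters and that of Hacl1 missed 5. Acot2, Acot1, Acot4 and Acot3 follow each other in that order on chromosome 12 in RefSeq.

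Between HFM and HFS livers the members as a whole lay close to level, and a few stood lower. Acot1, the cytosolic thioesterase, and Hacl1, a peroxisomal lyase that shortens branched and hydroxylated fatty acids, were lower in HFM livers, by 0.58 ± 0.19 and 0.39 ± 0.12 log2 units (standard error, 7 mice per group). Acads, the mitochondrial dehydrogenase of short-chain fatty acids, was higher by 0.19 ± 0.09. The other 32 members differed by between -0.40 and 0.17 and did not reach an unadjusted p of 0.05 (limma). In bulk liver, fewer cells of a type and less RNA per cell cannot be told apart.

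At an unadjusted p under 0.05 in limma, 2 of 35 members were lower in HFM livers, against 678 of 23410 tested probe sets (2.90%), and 1 was higher, against 836 (3.57%). The filter of the study's methods, a p under 0.01 with at least 1.2-fold, left the same 2 lower members and no higher one. The study had already reported both genes as downregulated from these same arrays, and the members were chosen with earlier results known. The count of lower members is therefore not independent of that report. The filter left 163 of all tested probe sets (0.696%), 57 lower (0.243%) and 106 higher (0.453%), a split of 34 and 149 when each array's median was subtracted. No member had an adjusted p under 0.05 (limma, Benjamini-Hochberg over all tested probe sets), nor did any of the 23410 (0%), of which 1514 (6.47%) had an unadjusted p under 0.05. Among the 10910 probe sets at least as bright as the dimmest member, 7.41% did. Adjusted p values of the members ran from 0.714 to 0.998. Thus 22 members lay below 0 and 13 above (24 and 11 after quantile normalization, 20 and 15 with the array median subtracted), beside 48.6% of all probe sets below 0, and the median difference was -0.04 for the members and 0.00 for all probe sets. In no member were the 7 HFM and 7 HFS values wholly apart, and how often they are over all probe sets was not counted.

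**Figure D1:**
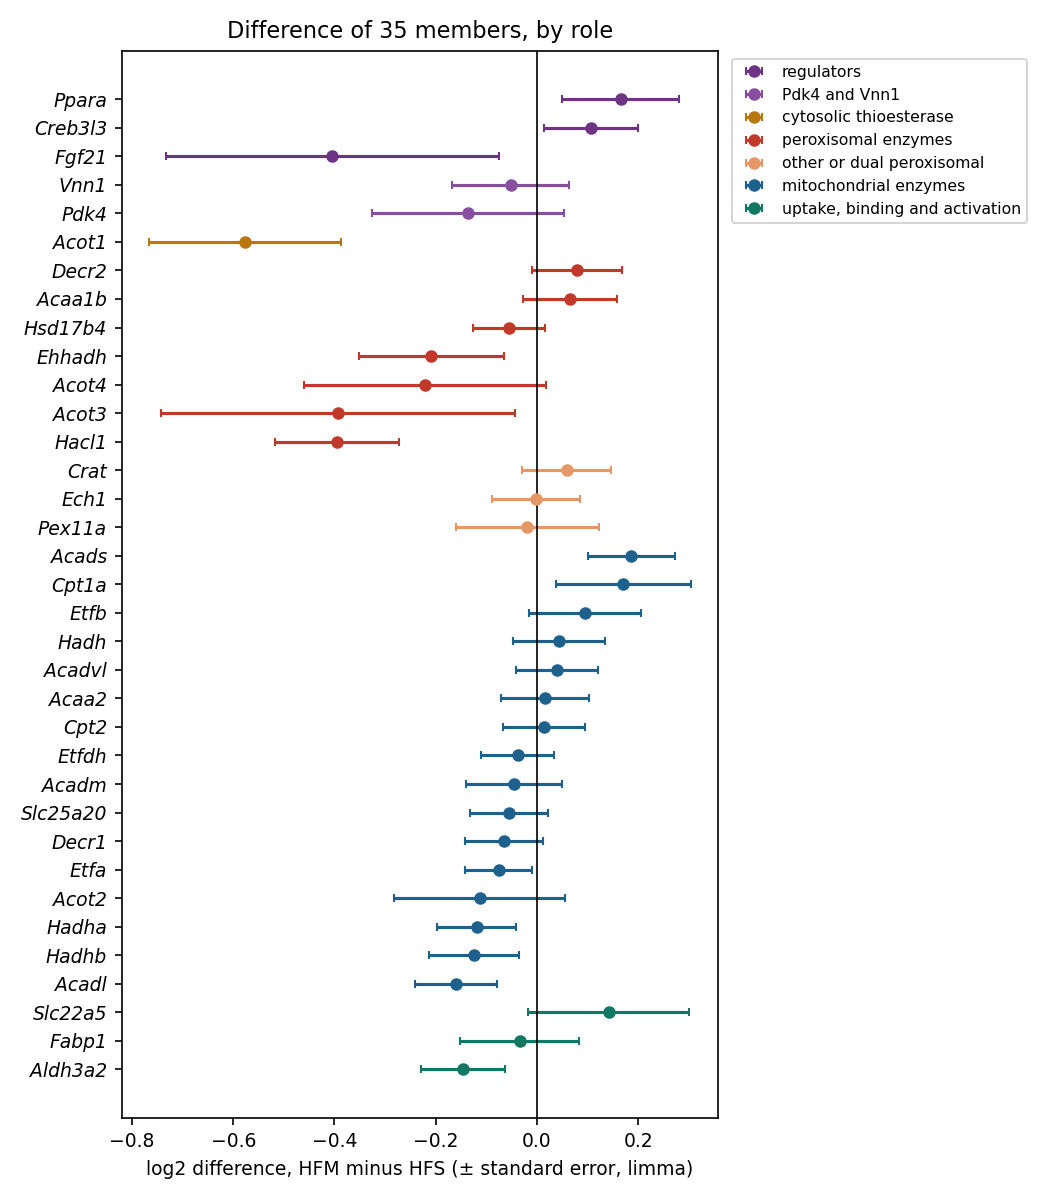
Log2 difference (HFM minus HFS) of the 35 measured members on the horizontal axis, grouped and coloured by role, with bars of 1 standard error from limma. Acot1 at -0.58 and Hacl1 at -0.39 lie left of 0 by more than 3 standard errors, and the mitochondrial enzymes lie between -0.16 and 0.19.

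Precision differed among the members. The 95% interval of the difference lay within 1.2-fold in either direction for 13 members, of which 9 were mitochondrial enzymes (Cpt2, Slc25a20, Acadm, Acadvl, Hadh, Acaa2, Decr1, Etfdh and Etfa) and the others were Hsd17b4, Acaa1b, Ech1 and Crat. For 30 of 35 members it lay within 1.5-fold, and the others were Acot1, Acot3, Acot4, Fgf21 and Hacl1. The widest intervals belonged to genes that varied most from mouse to mouse. The pooled standard deviation within groups was 0.80 for Acot3, 0.75 for Fgf21, 0.54 for Acot4, 0.43 for Acot1 and 0.42 for Pdk4. It was 0.26 for Hacl1 and 0.11 to 0.38 among the mitochondrial enzymes.

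The regulators came first in the order of the pathway. Ppara, the receptor gene, ran from 8.32 through a median of 8.90 to 9.17 in HFM livers and from 8.52 through 8.62 to 9.02 in HFS livers. The 2 highest mice were HFM2 and HFM3, and the lowest was HFM5, so the HFM group spanned the HFS group on both sides. The difference was 0.17 ± 0.12 (limma p = 0.168, adjusted p = 0.827, exact permutation p = 0.224), and leaving out 1 mouse at a time gave 0.11 without HFM2 (limma p = 0.349) to 0.25 without HFM5 (limma p = 0.0193). The group means were 8.84 ± 0.30 and 8.67 ± 0.16 (SD, n = 7 each).

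Creb3l3 encodes a membrane-bound transcription factor of the liver that acts with PPAR-alpha on Fgf21. Its level was 8.46 ± 0.13 in HFM livers (8.33, 8.48 and 8.68 as lowest, median and highest) and 8.35 ± 0.23 in HFS livers (8.12, 8.36 and 8.71). All HFM values lay within the wider HFS range, and the 3 lowest mice and the highest mouse were HFS. The difference was 0.11 ± 0.09 (limma p = 0.261, adjusted p = 0.855, exact permutation p = 0.292), and it was 0.07 without HFS6 and 0.17 without HFS1. Fgf21, a fasting hormone made by the liver, ran from 4.86 through 5.64 to 6.29 in HFM livers and from 5.42 through 5.62 to 8.04 in HFS livers. A single mouse, HFS4, lay far above all others, and the medians of the groups were nearly equal. The difference of -0.40 ± 0.33 (limma p = 0.236, adjusted p = 0.847, exact permutation p = 0.395) was -0.06 without HFS4.

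Pdk4, a kinase that holds pyruvate dehydrogenase inactive when fat is burned, overlapped throughout between the groups, with 4.16, 4.80 and 5.24 in HFM livers and 4.25, 4.85 and 5.42 in HFS livers. Its difference was -0.14 ± 0.19 (limma p = 0.483, adjusted p = 0.915, exact permutation p = 0.550), and leaving out 1 mouse at a time gave -0.24 without HFS3 to -0.04 without HFM2. Vnn1, a pantetheinase that is a sensitive target of the receptor, differed by -0.05 ± 0.12.

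The acyl-CoA thioesterases all lay below 0. Acot1 had its lowest, median and highest HFM values at 4.86, 5.06 and 5.32 and its HFS values at 4.61, 5.62 and 6.33. Here 6 of 7 HFS mice lay above every HFM mouse, and the remaining one, HFS5, lay below every HFM mouse. The HFM values were also packed more tightly, with 5.08 ± 0.18 against 5.66 ± 0.58 (SD, n = 7 each). Acot1 was thus 1.49-fold lower in HFM livers, with a difference of -0.58 (95% interval -0.98 to -0.18, limma p = 0.00697, adjusted p = 0.714, exact permutation p = 0.0291). Leaving out HFS5 gave -0.75 and leaving out HFS2, the highest mouse, gave -0.47. Its unadjusted p stayed under 0.05 in all 22 other settings that were run, and its place in the filter of the methods was lost in 12 of these 22, among them leaving out any of HFM2, HFM4, HFM5, HFM6, HFM7, HFS1, HFS2, HFS3 and HFS6.

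The neighbours of Acot1 varied widely. Acot2, its mitochondrial counterpart, differed by -0.11 ± 0.17. Acot3, a peroxisomal thioesterase, ran from 4.50 through 5.61 to 6.40 in HFM livers and from 4.56 through 6.02 to 7.34 in HFS livers. Acot4, the peroxisomal enzyme for succinyl- and other dicarboxylyl-CoA, ran from 5.71 through 6.40 to 7.18 and from 5.82 through 6.52 to 7.43. Both groups covered much the same range in each gene, with HFS1 highest and HFM6 lowest. The differences were -0.39 ± 0.35 for Acot3 (limma p = 0.276, adjusted p = 0.865, exact permutation p = 0.375) and -0.22 ± 0.24 for Acot4 (limma p = 0.367, adjusted p = 0.889, exact permutation p = 0.453). The 4 genes are close paralogs, Acot1 and Acot2 nearly identical, so their probe sets may bind each other's transcripts and the values are uncertain to that extent.

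**Figure D2:**
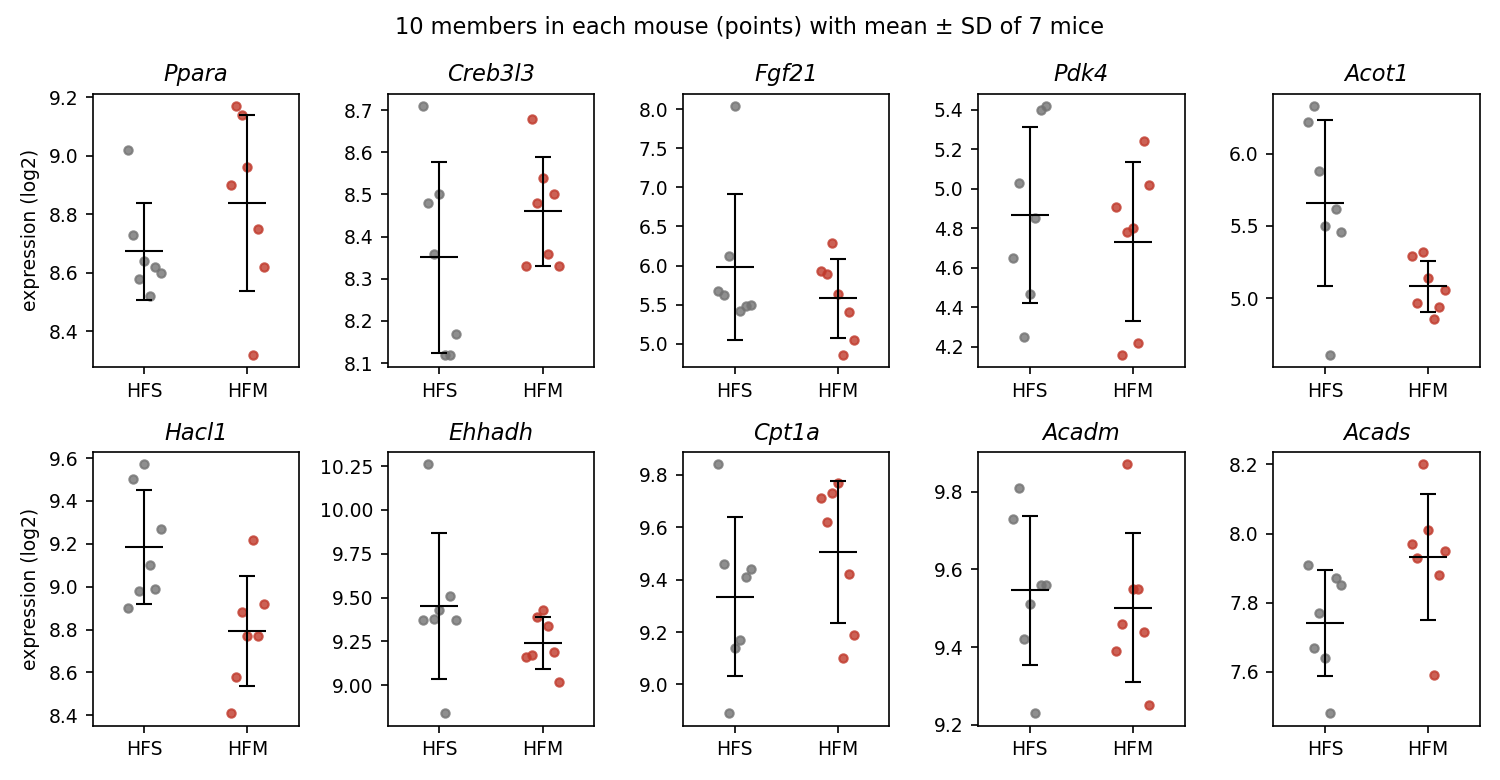
Log2 expression of 10 members in each mouse, with a line at the group mean, bars of 1 SD, grey points for the 7 HFS mice, red points for the 7 HFM mice and a separate vertical scale in each panel. For Acot1, 6 of 7 HFS points lie above all HFM points and HFS5 lies below them at 4.61, and in the Fgf21 panel HFS4 stands apart at 8.04.

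Among the peroxisomal enzymes, Hacl1 was the only one to pass the unadjusted threshold. Its HFM values ran from 8.41 through 8.77 to 9.22 and its HFS values from 8.90 through 9.10 to 9.57. In 5 HFM mice the level was below every HFS mouse, in 3 HFS mice it was above every HFM mouse, and HFM5 at 9.22 was the one HFM mouse above the HFS mean. Hacl1 was 1.31-fold lower in HFM livers, with means of 8.79 ± 0.26 and 9.19 ± 0.27 and a difference of -0.39 (95% interval -0.65 to -0.14, limma p = 0.00475, adjusted p = 0.714, exact permutation p = 0.0181). The exact p of Hacl1 was the lowest among the members. Its unadjusted p stayed under 0.05 in all 22 other settings, and it left the filter of the methods in 5 of them, with no moderation of the variance and without HFM1, HFM2, HFS2 or HFS4.

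Ehhadh, the bifunctional enzyme of the classical peroxisomal pathway and a strong PPAR-alpha target, had HFM values of 9.02, 9.19 and 9.43 and HFS values of 8.84, 9.38 and 10.26. As in Acot1, all 7 HFM mice lay below the HFS mean, HFS2 was the highest and HFS5 the lowest of all mice. The difference was -0.21 ± 0.14 (limma p = 0.162, adjusted p = 0.826, exact permutation p = 0.256), and it was -0.31 without HFS5 (limma p = 0.0237) and -0.07 without HFS2. Its means were 9.24 ± 0.15 and 9.45 ± 0.42 (SD, n = 7 each).

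The other steps of peroxisomal oxidation lay near 0. Hsd17b4, the bifunctional enzyme for branched chains and bile acid precursors, differed by -0.06, the thiolase Acaa1b by 0.07 and the dienoyl-CoA reductase Decr2 by 0.08. Acaa1b has a near-identical paralog, Acaa1a, and its value is uncertain in the same way as that of Acot1. Outside the enzyme class, Pex11a, which drives peroxisome division and is a receptor target, differed by -0.02. Ech1 and Crat, an isomerase and a carnitine acyltransferase found in both organelles, differed by -0.00 and 0.06. With the array median subtracted, Pex11a and Ech1 lay above 0.

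The mitochondrial enzymes lay on both sides of 0, 9 below and 7 above (11 and 5 after quantile normalization). Cpt1a, the carnitine acyltransferase that sets the pace of fatty acid entry, had HFM values of 9.10, 9.62 and 9.77 and HFS values of 8.89, 9.41 and 9.84, with the highest and the lowest mouse both HFS. Its difference was 0.17 ± 0.13 (limma p = 0.217, adjusted p = 0.837, exact permutation p = 0.283), and it was 0.10 without HFS3 and 0.26 without HFS1 (limma p = 0.0531). Cpt2 and the carrier Slc25a20, the inner-membrane steps of the same shuttle, differed by 0.01 and -0.06.

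Of the acyl-CoA dehydrogenases, which open each round of beta-oxidation, only Acads passed the unadjusted threshold. Acads ran from 7.59 through 7.95 to 8.20 in HFM livers and from 7.49 through 7.77 to 7.91 in HFS livers, so that 5 HFM mice lay above every HFS mouse and HFS5 was again the lowest. The difference was 0.19 (95% interval 0.01 to 0.37, limma p = 0.0436, adjusted p = 0.770), while the exact permutation p of 0.0577 missed the threshold. The unadjusted limma p of Acads was under 0.05 in 9 of 22 other settings. It was 0.0898 after quantile normalization and above 0.05, at most 0.108, without any one of HFM1, HFM2, HFM3, HFM4, HFM7, HFS2, HFS3, HFS4 or HFS5.

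Acadm, the medium-chain dehydrogenase, had HFM values of 9.25, 9.46 and 9.87 and HFS values of 9.23, 9.56 and 9.81, which is nearly the same range. Its difference was -0.04 ± 0.09 (limma p = 0.643, adjusted p = 0.950, exact permutation p = 0.668), and it was -0.11 without HFM3 and -0.00 without HFS2. Acadl, the long-chain dehydrogenase, differed by -0.16 ± 0.08 (limma p = 0.0647, exact permutation p = 0.0752) and Acadvl, the very-long-chain one, by 0.04. Hadha and Hadhb, the subunits of the trifunctional protein, both differed by -0.12, and the other probe set of Hadhb gave -0.13. The short-chain hydroxyacyl dehydrogenase Hadh (0.04), the thiolase Acaa2 (0.02) and the dienoyl-CoA reductase Decr1 (-0.07) lay close to 0. Etfa and Etfb, the subunits of the flavoprotein that takes electrons from the dehydrogenases, differed by -0.08 and 0.10, and Etfdh, which hands them on to ubiquinone, by -0.04.

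Of the genes for uptake, binding and aldehyde handling, none passed the unadjusted threshold. Slc22a5, the plasma membrane carrier of carnitine, differed by 0.14 ± 0.16. Fabp1, the abundant fatty acid binding protein of the hepatocyte whose promoter holds the closest window to the repeat, differed by -0.03 ± 0.12. Aldh3a2, the fatty aldehyde dehydrogenase, differed by -0.15 ± 0.08 (limma p = 0.0948, exact permutation p = 0.113).

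Peroxisomal enzymes were then set against mitochondrial ones, since a receptor target can act in either organelle. The 7 peroxisomal enzymes (Acot3, Acot4, Hacl1, Ehhadh, Hsd17b4, Acaa1b and Decr2) had 5 members below 0 and 2 above with a median difference of -0.21, and 1 passed the unadjusted threshold. The 16 mitochondrial enzymes had a median of -0.04, with 1 member past that threshold, higher (after quantile normalization 2 were lower and none was higher). Each gene was then centred on its mean over the 14 mice and each class averaged per mouse. The peroxisomal mean minus the mitochondrial mean ran from -0.35 through -0.07 to 0.09 in HFM livers and from -0.15 through 0.12 to 0.29 in HFS livers.

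In 6 of 7 HFM mice that difference lay below the HFS mean, and the groups overlapped. The group means were -0.07 ± 0.15 and 0.07 ± 0.16 (SD, n = 7 each), which leaves -0.15 between the groups, about as large as the spread of 0.15 between mice. No test was made of this score, since the genes were chosen with earlier results known. Its size depended on a few genes. With the median over genes in each mouse in place of the mean it was -0.00, without Acot3 and Acot4 it was -0.09, and with Ech1, Crat and Pex11a counted as peroxisomal it was -0.09. Adding those 3 genes also moved the median of the peroxisomal class from -0.21 to -0.04. That median was -0.31 without HFS5 and -0.07 without HFS1, and -0.08 without HFS2. The median of the mitochondrial class was -0.08 without HFM3, -0.00 without HFM7 and -0.01 with the array median subtracted.

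**Figure D3:**
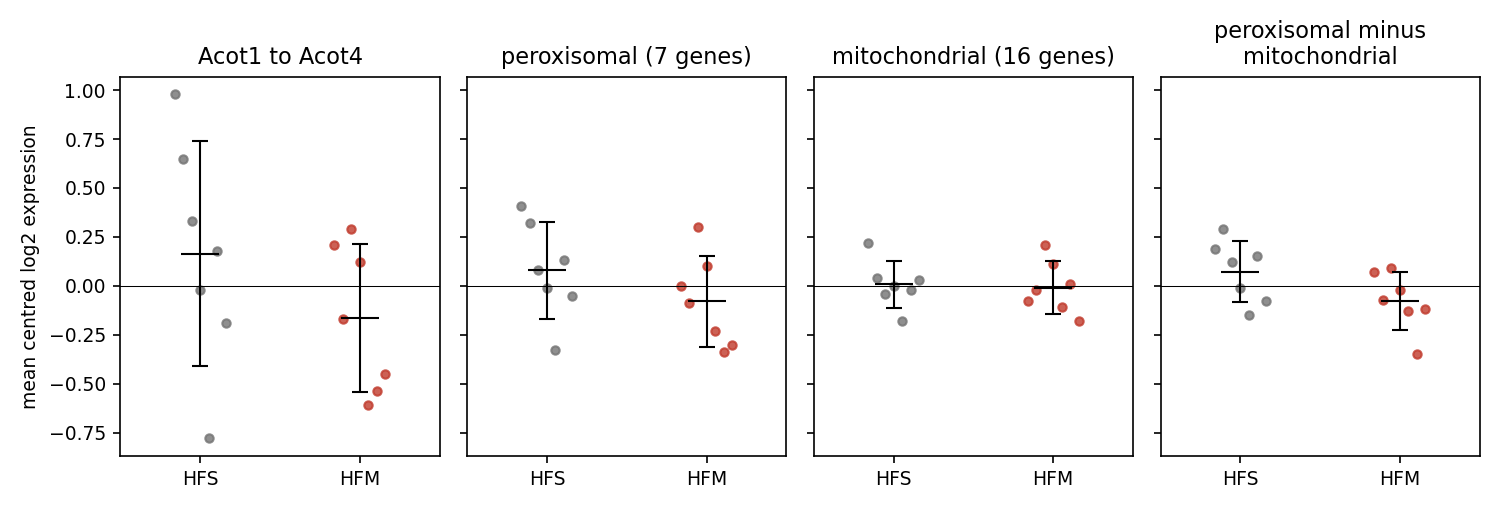
Mean centred log2 expression per mouse of Acot1 to Acot4, of the 7 peroxisomal and of the 16 mitochondrial enzymes, and the peroxisomal minus the mitochondrial mean, with a line at the group mean and bars of 1 SD over 7 mice per group. The thioesterases spread from -0.78 in HFS5 to 0.98 in HFS1, and the last panel has group means of -0.07 for HFM and 0.07 for HFS with overlapping points.

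Many members had their highest or lowest value in the same few mice. HFS1 had the highest value of all 14 mice in 14 of 35 members and HFM3 in 12. The lowest value fell to HFM7 in 7 members, to HFS5 in 6 and to HFM5 in 5. The mean centred log2 expression over all members was 0.29 in HFS1 and 0.23 in HFM3, and it was -0.24 in HFS5, -0.22 in HFM5 and -0.20 in HFM7, so that both groups held mice at either end. The group means of this score were -0.03 ± 0.16 in HFM and 0.03 ± 0.16 in HFS livers.

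**Figure D4:**
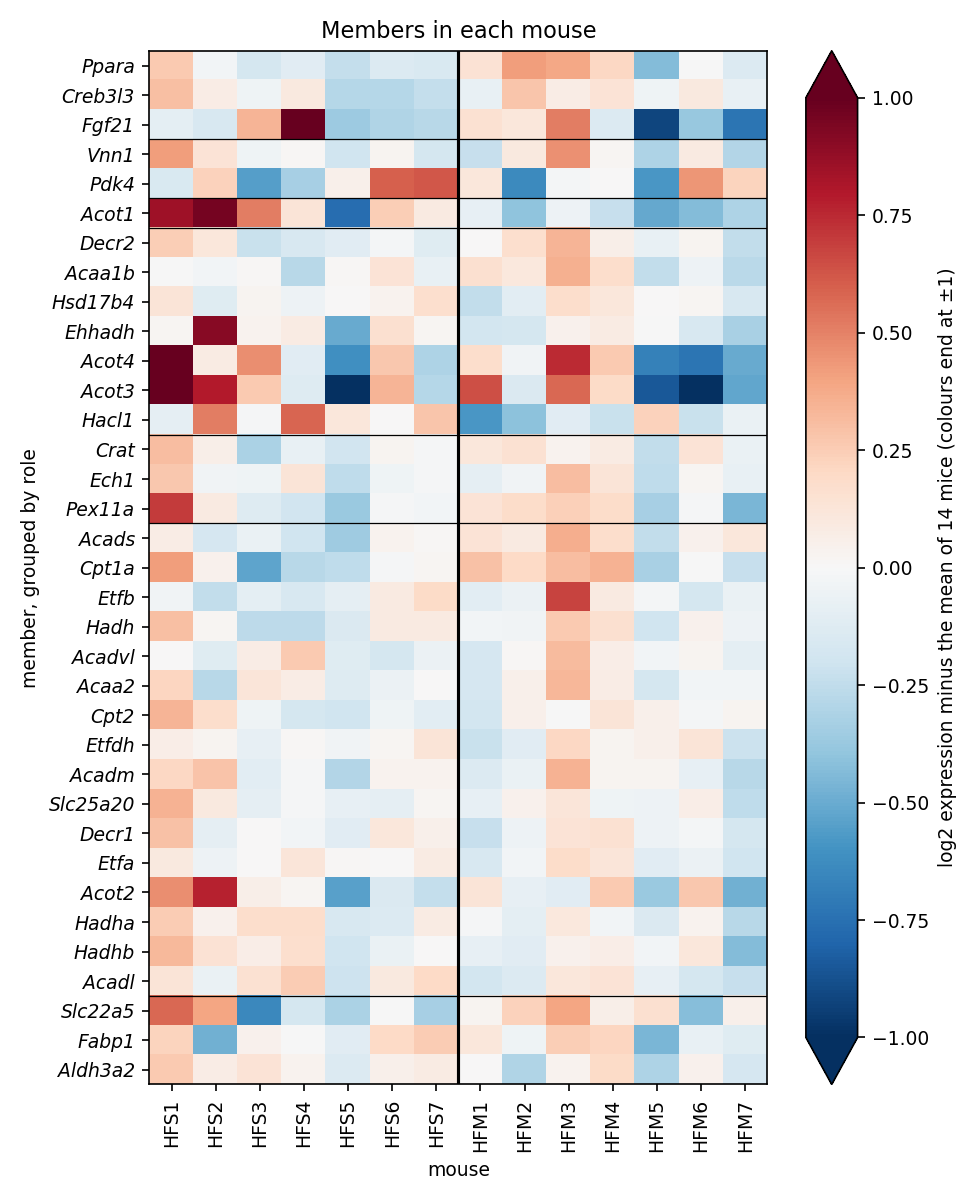
Log2 expression of each member in each mouse minus the gene's mean over the 14 mice, with members in rows grouped by role, mice in columns (HFS left, HFM right) and colours that end at 1 unit in either direction. HFS1 and HFM3 are mostly red, with the highest value in 14 and 12 members, and HFS5, HFM5 and HFM7 are mostly blue.

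Other genes of the pathway were taken from lists of the same kind. Of 13 further PPAR-alpha targets that were measured, 3 were lower at an unadjusted p under 0.05 and none was higher, and all 3 were fatty acid hydroxylases of the Cyp4a family, which start omega-oxidation. Cyp4a31 differed by -0.90 ± 0.27, Cyp4a14 by -0.77 ± 0.24 and Cyp4a10 by -0.64 ± 0.21 (limma adjusted p = 0.714 for each). These genes are also close paralogs whose probe sets may bind each other's transcripts. The other 10 targets did not pass, and the median of the 13 was 0.07.

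Few genes of the remaining machinery of both organelles passed the threshold. Of 18 other peroxisomal enzymes and carriers, none passed the unadjusted threshold, with 9 above and 9 below 0 and a median of 0.00 (6 and 12 with a median of -0.04 after quantile normalization). Of 12 peroxins, which build the organelle, 11 lay above 0 (9 after quantile normalization) and none passed, although 2 were higher with the array median subtracted. Of 16 other mitochondrial oxidation enzymes, 2 passed, both higher, namely Acad8 (0.23 ± 0.08) and Ivd (0.21 ± 0.08), which break down valine and leucine, and 3 passed with the array median subtracted. Of 6 listed genes of ketone body metabolism 4 were measured and none of these passed, namely Bdh1, which interconverts the ketone bodies, the thiolase Acat1, Oxct1, which serves ketone use, and the transporter Slc16a1. The other 2 were not analysed here. None of 19 partners and brakes of the receptor passed, with a median of 0.07, and none of 14 circadian clock genes did, with a median of 0.02 that was -0.01 after quantile normalization.

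Acute phase proteins, secreted in inflammation, were read beside Acot1. All 16 lay above 0 (15 after quantile normalization) with a median of 0.29. An unadjusted p under 0.05 was reached by 9, all higher, and not by the other 7, and none had an adjusted p under 0.05 (limma, lowest 0.482 for Saa3). Among the 9, the smallest p values were those of Saa3 (0.81 ± 0.15), Saa1 (2.21 ± 0.61), Saa2 (2.12 ± 0.61) and Itih4 (0.29 ± 0.09). Their mean centred level was 0.05 to 0.54 in HFM mice. In HFS mice it was -0.82 to -0.43 in 5 animals, 0.14 in HFS6 and 0.64 in HFS5, the highest of all 14 mice. HFS5 is also the mouse with the lowest Acot1 and Ehhadh values, and without it Acot1 differed by -0.75. It was low over all members too, at -0.24. HFS6 had Acot1 at 5.62, above every HFM mouse, and Ehhadh at 9.51. Among HFM mice, HFM5 had both the lowest acute phase level (0.05) and the lowest Acot1 value (4.86). HFM2 and HFM6, with the highest acute phase levels (0.54 and 0.52), had Acot1 at 4.97 and 4.94. In HFM1 and HFM4 (0.09 and 0.19) Acot1 was 5.29 and 5.14, and in HFM3 and HFM7 (0.40 and 0.44) it was 5.32 and 5.06. For Hacl1, HFS5 lay at 9.10, the median of its group. The part of the acute phase genes in these results was not tested.

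**Figure D5:**
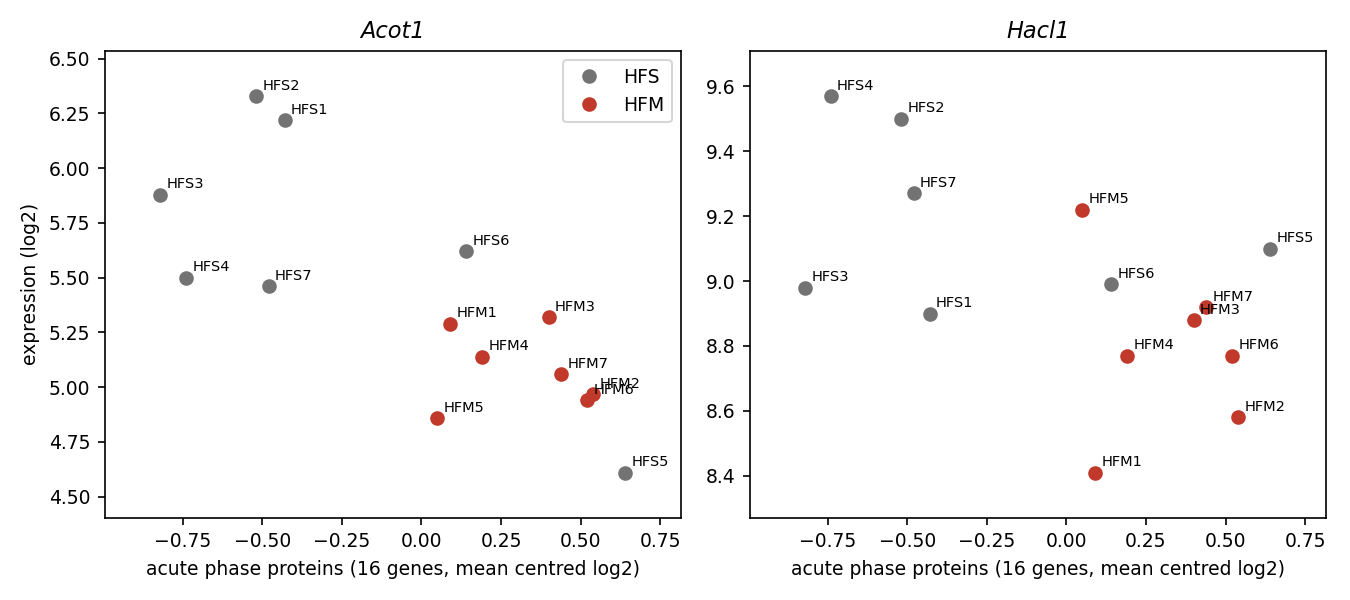
Log2 expression of Acot1 (left) and Hacl1 (right) against the mean centred log2 level of 16 acute phase proteins, 1 point per mouse, grey for HFS and red for HFM. HFS5 has the highest acute phase level at 0.64 with the lowest Acot1 value at 4.61, and its Hacl1 value of 9.10 lies among the other HFS mice. HFS6, with an acute phase level of 0.14, has Acot1 at 5.62, above all HFM points.

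Markers of other liver cells were read beside the members. All 20 Kupffer cell and macrophage markers lay above 0, 7 of them at an unadjusted p under 0.05, and their mean level ran from 6.19 to 7.20 in HFM and from 5.98 to 6.88 in HFS livers. Of the 20, Itgam, Aif1 and Cd163 lay under the median of all tested probe sets. Of the other lists, 2 of 9 stellate cell markers were higher (Col1a2 and Pdgfrb), 1 of 9 neutrophil markers was higher (Cxcr2) and 1 of 11 lymphocyte markers was higher (Cd3g) and 1 lower (Cd79a). No more than 2 of the 9 neutrophil and 1 of the 11 lymphocyte markers lay above that median. None of 8 endothelial and 4 cholangiocyte markers passed. With the array median subtracted 3 stellate cell markers and 1 endothelial marker were higher and no lymphocyte marker was lower. The 11 hepatocyte markers had mean levels of 11.47 to 11.67 in HFM and 11.51 to 11.64 in HFS livers and none passed, and the part of macrophage content in the results for the members was not tested.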

How the data were processed

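Liver RNA of 7 HFM and 7 HFS mice was read on 1 array each. The authors turned the scans into 1 normalized value per probe set with Affymetrix Expression Console, and what they deposited is on a log2 scale. The labels name RMA and the methods PLIER as the algorithm. The version of Expression Console, the probe annotation, the genome build and any scan batch were not given in the sources used here. Every value column was used (0 left out).

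The 23410 probe sets with a gene symbol (21789 with exactly 1, 1621 with several) were tested, and 12146 with none were left out. HFM minus HFS was fitted with limma 3.58.1 in R 4.3.3 (lmFit, eBayes, no covariate), adjusted after Benjamini and Hochberg over all of them. Intervals are 95%. Exact permutation tests were two-sided over all 3432 assignments (Python 3.11.15). The fit was tested on simulated data with independent noise in each probe set. Shifts shared by many genes of a mouse were not part of that simulation. In Partek the authors had corrected after Bonferroni and kept p under 0.01 with 1.2-fold or more. Of the 35 measured members, 35 identifiers were in RefSeq and 0 symbols changed, and no member shared a probe set.

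The members, lists and tests were chosen with earlier results of these data known. Members given in full were those with an unadjusted p under 0.05 and Ppara, Fgf21, Creb3l3, Pdk4, Cpt1a, Acadm and Ehhadh whatever their p. From other lists up to 4 genes with an unadjusted p under 0.05 are named, and further names are markers behind a count. Acot3, Acot4, Acadl and Aldh3a2 were given p values after these were seen. Alternatives were another normalization, filter, weight, prior, probe set choice, correction or class, the mouse number as a block, and each mouse left out. The number of arrays limits the precision.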

Additional observations from a re-analysis of the deposited data

Results flagged for a closer look

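In 5 of the 70 groups of 7 mice that the 35 members form, the highest or lowest mouse stood apart from the nearest other mouse by more than Dixon's critical share of the group's range at the 95% level, and chance alone gives about 1 in 20 groups. Among HFS livers, HFS1 was the highest for Ppara at 9.016 log2 units, with the next at 8.726. HFS1 was also the highest for Pex11a, at 9.16 with the next at 8.55. HFS4 was the highest for Fgf21, at 8.041 with the next at 6.122. Among HFM livers, HFM7 was the lowest for Hadhb at 8.215, with the next at 8.544, and HFM3 was the highest for Etfb at 9.404, with the next at 8.817.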

How the results depend on the processing

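Directions held in every setting run for the medians, for the difference between the classes and for the 10 members given in full. Some of these values were so close to 0 that their sign says little. Acadm was -0.0009 without HFS2, and the median of the members was -0.0014 without HFS1. The difference between the classes was -0.0039 with the median over genes. The number of members past an unadjusted p of 0.05 was 5 after quantile normalization, all lower (Acadl, Acot1, Aldh3a2, Hacl1 and Hadha). It was 2 to 5 with each mouse left out, 5 without HFS5 (Acadl, Acot1, Aldh3a2, Ehhadh and Hacl1). The number past the filter of the methods was 1 with array weights, 1 with a trended and robust prior (Hacl1 in each), 0 without moderation and 0 to 2 with each mouse left out, 0 without HFM2 or HFS2. Over other sets of probe sets that filter left 102 among the 11705 brighter ones and 254 among all 35556. Over the 23410 tested it left 75 without moderation and 92 to 359 with each mouse left out (92 without HFM2, 346 without HFM7, 359 without HFM5). An adjusted p under 0.05 was reached by 0 to 1 probe sets with each mouse left out, 1 without HFS6. The median over the members was -0.08 to -0.00 with each mouse left out, the latter without HFS1.

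Mice carry numbers in each group. With the number as a replicate block, 171 probe sets passed the filter, 0 the adjusted p, and 2 and 3 members passed the thresholds, so no call on a member was changed. Same-number mice correlated at -0.203 to 0.139 in their deviations from the group means and 0 of 7 correlated best with their own number. The labels give no cage, litter or scan date, so this check cannot settle whether same-number mice share more than a number. The class without Acot3 and Acot4 was chosen after seeing the data.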
